A study of Mus musculus with 6 samples.

Results

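NRF2, encoded by *Nfe2l2*, is the transcription factor that drives the antioxidant and detoxifying response of most mammalian cells. The genes described here are *Nfe2l2*, its inhibitor *Keap1*, the adaptor *Sqstm1*, and the NRF2 targets and antioxidant enzymes around them. They were chosen by symbol, with no threshold on their values. All 35 listed symbols were found among the 19309 genes of the deposited count table, and 34 of them had enough counts to be tested. The libraries came from bone marrow-derived macrophages of 3 sEH-/- mice, which carry a constitutive, global deletion of the soluble epoxide hydrolase gene *Ephx2*, and of 3 wild-type mice. The study's methods give the age of donor mice for macrophage cultures as 8 to 10 weeks. Monocytes of both genotypes were differentiated for 7 days in M-CSF and GM-CSF, polarized to the M1 state for 24 h with IFN-γ and LPS, and then given TGF-β1 for another 48 h to reach the M2c state, by the times in the sample labels (in the methods, M1 polarization took 12 h and TGF-β1 was given for 24 or 48 h). No untreated, M1 or TGF-β1-free library was compared, so that the values refer to genotype within 1 culture state.

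In resting cells KEAP1 holds NRF2 in the cytoplasm and directs its degradation. When electrophiles or oxidants modify KEAP1, NRF2 accumulates, enters the nucleus and binds antioxidant response elements together with small MAF proteins. The targets include enzymes that degrade haem and store iron, make and recycle glutathione, reduce quinones, conjugate and export xenobiotics, recycle thioredoxin and supply NADPH. In macrophages the pathway is known as a brake on the oxidative burst and on inflammatory gene expression.

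The binding element is shown first because NRF2 acts through it. Its core reads TGACNNNGC, where N is any base. RefSeq promoter windows (GRCm38.p6, 250 bases before to 50 after an annotated start) were given for 29 of the 35 genes. Of those 29, 11 (37.9%) held the core on either strand, against 3781 of 27025 genes (14.0%) with such a window. Genes with several starts had several windows, and by window 11 of 40 (27.5%) held the core, against 4071 of 32851 (12.4%). The genes were listed as NRF2 targets and antioxidant enzymes, and the shares were not tested. The windows of *Abcc1*, *Gclc*, *Gsr*, *Gsta4*, *Hmox1* and *Prdx6* were not analysed here. The 29-base stretches below are printed along the strand of their gene for the regulator and the classical targets that held a core, and for both genes with the full form TGACTCAGC, with the core in capitals. Where the capitals begin with GC, the core lies on the opposite strand.
Nfe2l2, chr2:75704885-75704913, minus strand: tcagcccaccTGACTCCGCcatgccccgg
Gclm, chr3:122245413-122245441, plus strand: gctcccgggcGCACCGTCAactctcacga
Txnrd1, chr10:82859104-82859132, plus strand: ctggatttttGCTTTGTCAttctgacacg
Srxn1, chr2:152105542-152105570, plus strand: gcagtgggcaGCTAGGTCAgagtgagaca
Prdx1, chr4:116685456-116685484, plus strand: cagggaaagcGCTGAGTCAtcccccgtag
Me1, chr9:86695902-86695930, minus strand: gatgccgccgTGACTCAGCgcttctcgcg
The stretch of *Txnrd1* lies inside the gene (chr10:82833951-82897712), and its core begins 92 bases before an annotated start within it. The other genes with a core were *Blvra*, *G6pdx*, *Mgst1*, *Pgd* and *Sod1*. A match describes these letters and does not mark a bound site, and no binding was measured in these samples.

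In the deposited counts, most of this module stood close to wild-type levels in sEH-/- cells. Of the 34 tested genes, 0 were called by the study's criteria, a fold change of more than 1.5 in either direction with an adjusted p below 0.05 (edgeR quasi-likelihood test with Benjamini-Hochberg adjustment over 13785 genes). Over all tested genes 360 were called, which is 2.61%. Of these, 208 (1.51%) were higher and 152 (1.1%) lower in sEH-/- cells. DESeq2 and limma-voom likewise called 0 of the 34. By adjusted p alone 1 of the 34 passed, mitochondrial superoxide dismutase *Sod2*, against 553 (4.01%) of all tested genes. At an unadjusted p below 0.05 there were 4 of 34 (11.8%), *Sod2*, *Nfe2l2*, *Gclc* and *Prdx5*, against 23.4% of all tested genes. CPM, a gene's counts scaled to 1000000 counts of the TMM-normalized library, did not overlap between the genotypes for 2 of the 34 (5.88%), *Sod2* and *Nfe2l2*, against 3625 (26.3%) of all tested genes. Part of these gaps goes with abundance, since 20 of the 34 had more than 0.2 counts per exonic base. Of all 1521 such genes, 0.99% were called and 2.04% passed the adjusted p. An unadjusted p below 0.05 was found for 17.4% of them, and 18.1% did not overlap. Of the 20 in the module, 0 were called, 0 passed, 2 had an unadjusted p below 0.05 and 1 did not overlap.

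The intervals show how large a difference in the deposited counts these libraries could have held. They take counts to scale with library totals, which many abundant genes here did not do, as given below. They are therefore not bounds on differences in expression. The fitted log2 fold changes, sEH-/- over wild-type, ran from -0.33 for *Nqo1* to 0.42 for *Sod2*, and the median standard error was 0.10 (0.070 to 0.25). For 31 of the 34 genes the whole 95% interval lay within a 1.5-fold change, and for all 34 it lay within a 2-fold change. The 3 with an interval reaching past 1.5-fold in either direction were *Nqo1*, *Me1* and *Sod2*. The log2 fold change was above 0 for 24 genes and below 0 for 10, with a median of 0.089 against -0.00092 over all tested genes. Under the other scalings 21 to 24 were above 0. That median stayed above 0 in every alternative run, but it fell to 0.028 with the library total as a covariate, to 0.027 without sEH-/- replicate 3 and to 0.040 without wild-type replicate 2, and it was 0.15 without sEH-/- replicate 1.

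**Figure D1:**
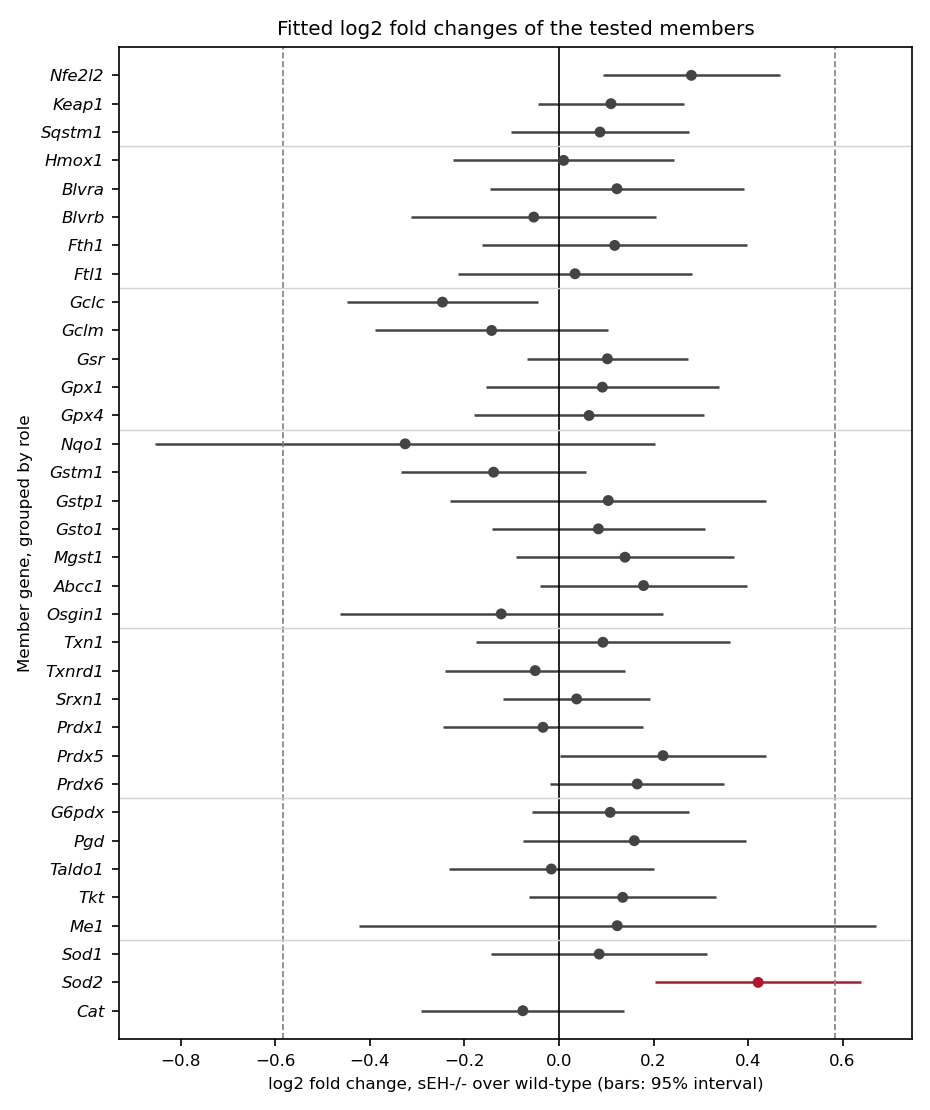
Fitted log2 fold change of each of the 34 tested genes, sEH-/- over wild-type (points), with its 95% interval (bars). Genes are grouped by role between the light lines, the dashed lines mark a 1.5-fold change, and red marks the 1 gene with an adjusted p below 0.05, *Sod2*.

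Facts of the libraries bear on these values. Totals lay between 4400197 counts in sEH-/- replicate 3 and 6096440 in wild-type replicate 2. *Ephx2* (chr14:66084374-66124500) had 4, 2 and 1 counts in sEH-/- cells against 26, 49 and 57 in wild-type cells, a log2 fold change with SE of -4.05 ± 0.43 (edgeR adjusted p = 0.0042), so the genotype labels held in every library. All 9 macrophage markers were expressed, with a summed CPM of 2242 to 2762 in sEH-/- against 1976 to 2498 in wild-type libraries, and 1 of the 9, *Cd14*, passed the adjusted p. In cultured bulk cells, fewer cells of a type and less RNA per cell cannot be told apart. Of the 10 neutrophil markers 7 were analysed, and their summed CPM was 70.0 to 114 in sEH-/- against 47.9 to 53.0 in wild-type libraries, nearly all of it from *Csf3r* and *S100a8*, while *Elane*, *Ngp*, *Camp*, *Ltf* and *S100a9* had 0 to 10 counts in each library. The 9 stromal or endothelial markers summed to 62.1 to 74.1 CPM in sEH-/- against 63.8 to 108 in wild-type libraries, with the collagens *Col1a1* and *Col1a2* highest in wild-type replicate 2 at 121 and 171 counts. The dendritic cell markers (6 of 8 analysed, *Cd209a* at 0 counts) summed to 27.5 to 58.4 and 42.2 to 59.4 CPM, the lymphocyte markers (2 of 9) to 16.4 to 35.9 and 20.7 to 30.7, and the erythroid markers (2 of 9) to 2.57 to 3.63 and 2.76 to 4.48. The part of these cells in the results was not tested.

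Duplicate reads were removed before counting, and the highest count per exonic base of any tested gene was 0.97. *Hmox1*, at 0.76 counts per base, lay at the 99.9th percentile of all tested genes, and 20 of the 34 module genes exceeded 0.2. Their raw counts moved less than the library totals did. The largest total was 1.39 times the smallest, but 22 of the 34 genes (64.7%) had a smaller ratio between their highest and lowest counts, down to 1.06 for *Gpx1* and 1.09 for *Fth1*, against 17.5% of all tested genes and 68.7% of the 1521 tested genes above 0.2 counts per base. CPM of such genes was most often highest in the library with the smallest total. In sEH-/- replicate 3, 23 of the 34 genes (67.6%) had their highest CPM, against 43.4% of the genes above 0.2 counts per base and 15.2% of all tested genes. In sEH-/- replicate 1 and wild-type replicate 2, which had the largest totals, 26 of the 34 (76.5%) had their lowest, against 79.1% and 37.7%. Among genes above 0.2 counts per base, the median log2 fold change was 0.089 for the 20 in the module and 0.055 for all 1521, of which 66.9% were above 0. After correcting counts for a ceiling of 1 per base, the median over the module was 0.093 and 31 of 34 intervals lay within a 1.5-fold change. How far this correction restores the spread of the counts was not tested.

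**Figure D2:**
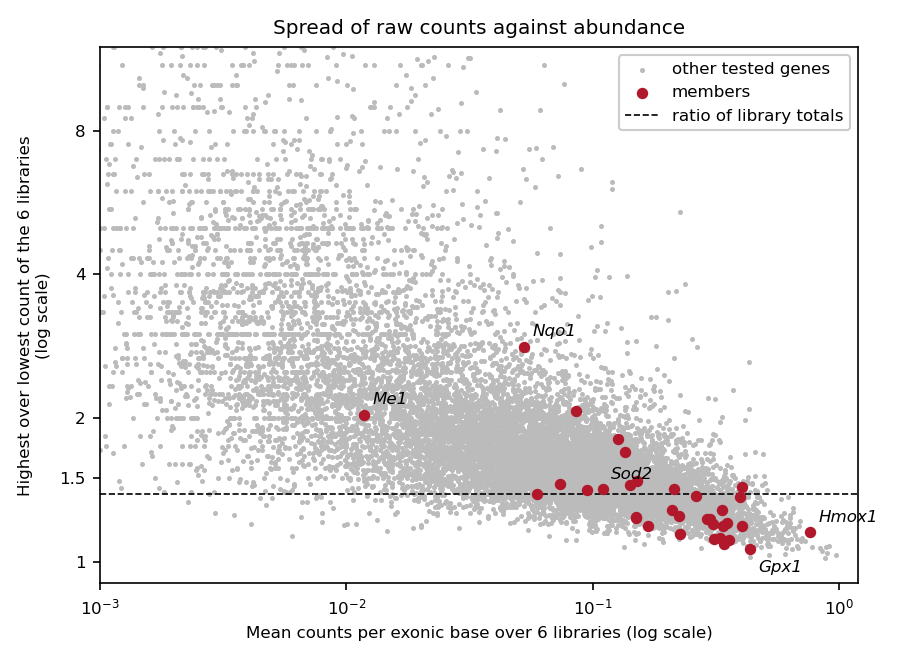
Ratio of the highest to the lowest raw count over the 6 libraries (vertical, log scale) against mean counts per exonic base (horizontal, log scale) for 13721 tested genes with a known length and a count in every library, with module genes in red. The dashed line is the ratio of the largest to the smallest library total, 1.39, under which 22 of the 34 module genes lie. There are 238 genes outside the drawn range, which ends at a ratio of 12 and begins at 0.001 counts per base.

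**Figure D3:**
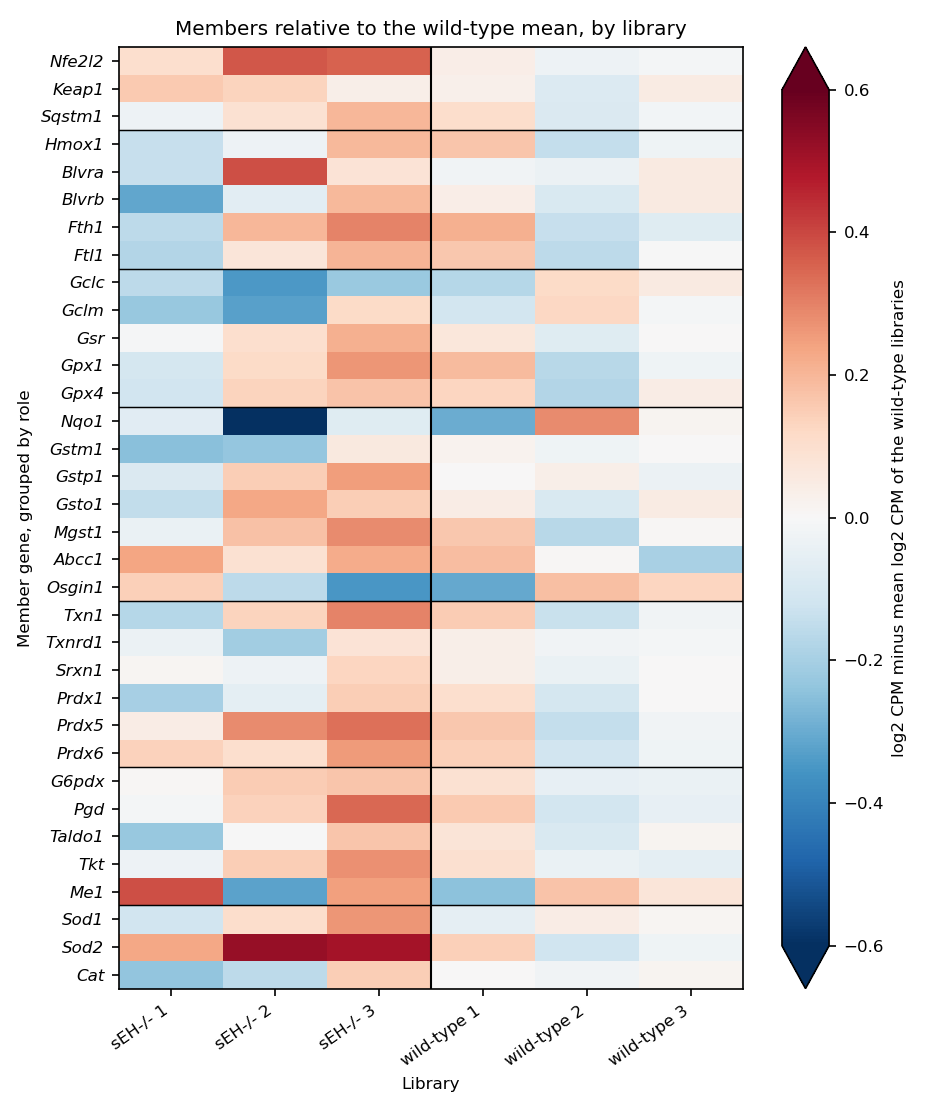
log2 CPM of each tested gene in each library minus the mean log2 CPM of the 3 wild-type libraries (colour scale from -0.6 to 0.6), grouped by role between the horizontal lines. The column of sEH-/- replicate 3 is mostly red, with a median of 0.20 over the genes, while those of sEH-/- replicate 1 and wild-type replicate 2 are mostly pale blue, each with a median of -0.077.

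Among the regulators, *Nfe2l2* itself (chr2:75675513-75704641) was the one whose CPM separated by genotype. Its CPM was 186, 225 and 222 in sEH-/- cells against 179, 170 and 172 in wild-type cells. The lowest sEH-/- library lay just above the highest wild-type library, and the sEH-/- mean was 211 ± 21.7 against 174 ± 4.56 (SD, n = 3 libraries). The log2 fold change of 0.28 (SE 0.084) did not pass the test over all genes (edgeR adjusted p = 0.080). It passed in 1 of 15 alternatives, without sEH-/- replicate 1 (log2 fold change 0.37, edgeR adjusted p = 0.024), and adjusted p ran from 0.024 to 0.30 over them. In raw counts *Nfe2l2* had 1088, 1114 and 959 against 813, 1047 and 962. The genotypes thus overlapped before scaling, with sEH-/- replicate 3 below wild-type replicates 2 and 3. NRF2 is regulated largely through its protein, which was not measured in these files.

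*Keap1* (chr9:21229730-21239361), the sensor that marks NRF2 for degradation, had a CPM of 145, 143 and 134 in sEH-/- against 133, 123 and 135 in wild-type libraries. These values overlapped, with a log2 fold change with SE of 0.11 ± 0.070 (edgeR adjusted p = 0.38). *Sqstm1* (chr11:50199366-50210827), which encodes the autophagy receptor p62 that can displace NRF2 from KEAP1 and is itself a target, had 247, 269 and 290 against 271, 238 and 249 CPM, also overlapping, at 0.087 (SE 0.085, adjusted p = 0.59).

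The 6 classical targets followed for this pathway, *Hmox1*, *Nqo1*, *Gclm*, *Gclc*, *Txnrd1* and *Srxn1*, did not share a direction, with log2 fold changes of 4 below 0 and 2 above 0 (5 and 1 under library totals without TMM, the covariate or the ceiling correction), and none passed the test. Their median log2 CPM relative to wild-type was -0.10, -0.27 and 0.099 in sEH-/- cells against -0.038, 0.046 and -0.0056 in wild-type cells. Replicates 1 and 2 of sEH-/- thus lay below all wild-type libraries. Replicate 3 of sEH-/-, the library with the smallest total, lay above them. 

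*Hmox1* (chr8:75093621-75100589), the inducible haem oxygenase that opens haem to release iron, carbon monoxide and biliverdin, had a CPM of 233, 252 and 294 in sEH-/- against 288, 233 and 253 in wild-type libraries. Both genotypes covered the same range, and the log2 fold change was 0.0098 (SE 0.11, 95% interval -0.22 to 0.24, edgeR adjusted p = 0.97). With the counts corrected for the ceiling, which moved *Hmox1* more than any other gene of the module, it was -0.11, with an interval of -0.32 to 0.11. The biliverdin reductases that take the next step stood at log2 fold changes of 0.12 (*Blvra*) and -0.053 (*Blvrb*).

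The ferritin subunits that store the released iron also overlapped. The heavy chain *Fth1* (chr19:9980598-9985098) had 197, 252 and 270 against 255, 199 and 209 CPM, a log2 fold change with SE of 0.12 ± 0.13 (edgeR adjusted p = 0.63). The light chain *Ftl1* (chr7:45457944-45459884) had 73.9, 87.8 and 96.2 against 93.4, 75.0 and 83.4 CPM, a log2 fold change with SE of 0.034 ± 0.11 (adjusted p = 0.89). In both, the lowest values were those of sEH-/- replicate 1 and wild-type replicate 2, the libraries with the largest totals. Both ferritin genes have pseudogenes, and reads that map to several places had been discarded, so their levels are uncertain.

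Both subunits of the first enzyme of glutathione synthesis had a mean below that of wild-type cells, and neither passed the test. *Gclc* (chr9:77754535-77794485) encodes the catalytic subunit of glutamate-cysteine ligase, the rate-limiting enzyme of the pathway, and had a CPM of 87.9, 77.1 and 83.9 in sEH-/- libraries. The wild-type libraries had 87.1, 106 and 102, so that wild-type replicate 1 lay within the sEH-/- range. The log2 fold change was -0.25 (SE 0.091, 95% interval -0.45 to -0.045), and it did not pass over all genes (edgeR adjusted p = 0.14, and 0.059 to 0.46 over the alternatives). Its modifier subunit *Gclm* (chr3:122245557-122270732) had 145, 135 and 183 against 157, 185 and 168 CPM, at -0.14 (SE 0.11, adjusted p = 0.48), with sEH-/- replicate 3 near the top of both groups. The enzymes that use or regenerate glutathione stood slightly above 0, at log2 fold changes of 0.10 for glutathione reductase *Gsr*, 0.092 for *Gpx1*, which reduces hydrogen peroxide, and 0.064 for *Gpx4*, which reduces lipid hydroperoxides.

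*Nqo1* (chr8:107388225-107403206), the quinone reductase often used as a readout of NRF2 activity, was a scarce transcript here, at 0.053 counts per base. Its raw counts were 94, 45 and 69 in sEH-/- against 62, 127 and 95 in wild-type libraries, or 16.1, 9.08 and 16.0 against 13.6, 20.6 and 17.0 CPM. Only sEH-/- replicate 2 lay below the wild-type range. The log2 fold change of -0.33 (SE 0.24) carried an interval from -0.85 to 0.20 (edgeR adjusted p = 0.45), the second widest of the module after *Me1*. 

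Of the conjugating and exporting genes of the module, none passed the test. Log2 fold changes were 0.18 for the glutathione conjugate exporter *Abcc1*, 0.14 for microsomal *Mgst1*, 0.10 for *Gstp1*, 0.083 for *Gsto1* and -0.14 for *Gstm1*, and -0.12 for the growth inhibitor *Osgin1*, with edgeR adjusted p between 0.31 and 0.73. *Gstm1* was one of 3 module genes, with *Hmox1* and *Cat*, whose value moved down by at least 0.05 on correction for the ceiling, to -0.21. *Gsta4*, which conjugates the lipid peroxidation product 4-hydroxynonenal, was not tested, with 3, 8 and 3 counts in sEH-/- against 6, 3 and 3 in wild-type libraries. *Gstm1* and *Gstp1* have near-identical relatives that could share reads.

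Thioredoxin reductase *Txnrd1* (chr10:82833951-82897712), which keeps thioredoxin reduced, had a CPM of 287, 255 and 312 in sEH-/- against 302, 290 and 292 in wild-type libraries. The wild-type values lay close together and inside the sEH-/- range, and the log2 fold change was -0.050 (SE 0.086, edgeR adjusted p = 0.78). Sulfiredoxin *Srxn1* (chr2:152105516-152111376), which repairs overoxidized peroxiredoxins, had the second smallest standard error of the module after *Keap1*, at 180, 174 and 196 against 183, 174 and 179 CPM. Its log2 fold change was 0.037 (SE 0.070, 95% interval -0.12 to 0.19, adjusted p = 0.80). The peroxiredoxins, which reduce hydrogen peroxide, stood at log2 fold changes of 0.22 (*Prdx5*, SE 0.098, adjusted p = 0.21), 0.17 (*Prdx6*, SE 0.083, adjusted p = 0.27) and -0.034 (*Prdx1*), and thioredoxin *Txn1* at 0.093. In *Prdx5*, as in *Fth1*, wild-type replicate 1 overlapped the sEH-/- libraries at 145 CPM against 134, 158 and 163.

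The NADPH-supplying enzymes showed no called difference either. *G6pdx*, the entry enzyme of the pentose phosphate pathway, stood at a log2 fold change of 0.11, *Pgd*, the second NADPH-making step, at 0.16, and the transketolase *Tkt* and transaldolase *Taldo1* of the non-oxidative branch at 0.13 and -0.016, with edgeR adjusted p from 0.40 to 0.94. *Tkt* is the 1 module gene on the chromosome of *Ephx2*, 35.5 Mb away. Malic enzyme *Me1*, the least abundant tested gene of the module at 0.012 counts per base, stood at 0.12 with an interval of -0.42 to 0.67.

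**Figure D4:**
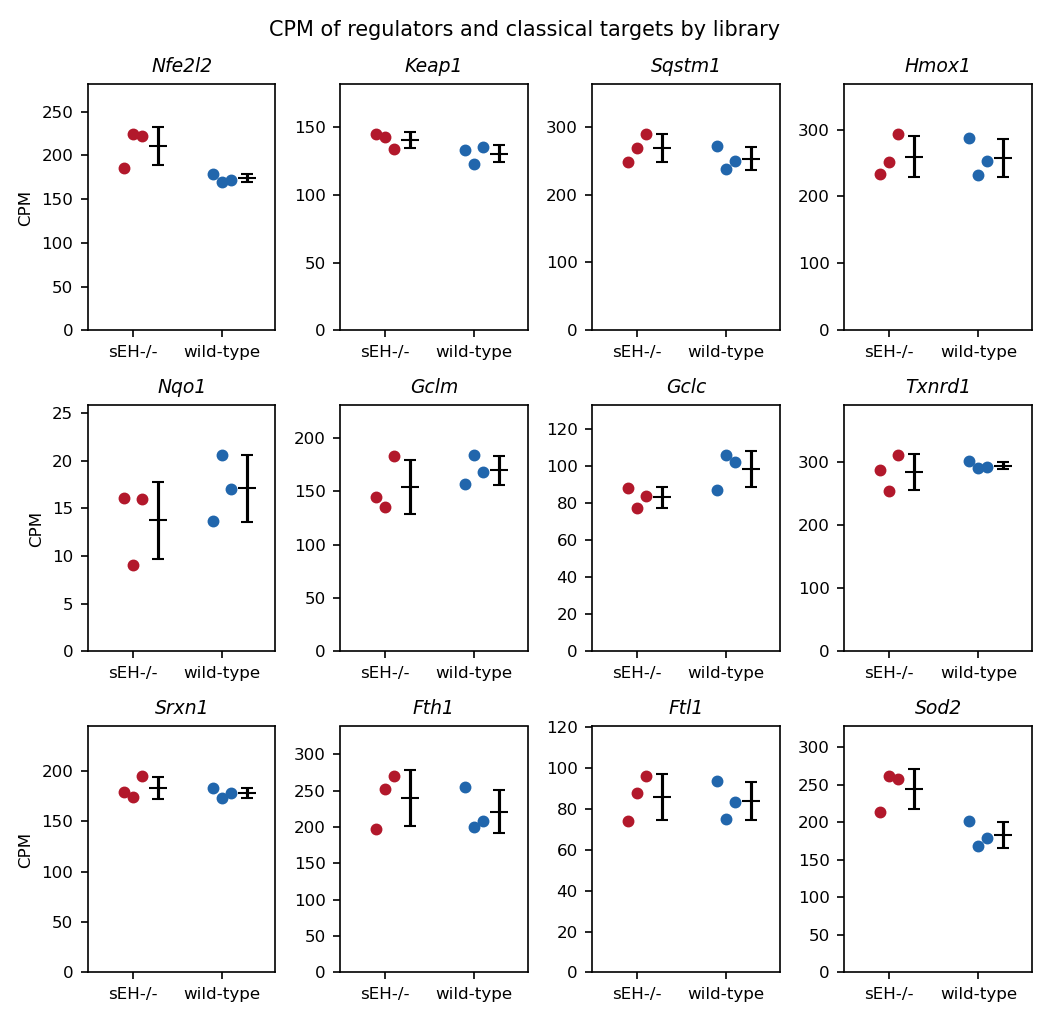
CPM of the NRF2 regulators, the classical targets, ferritins and *Sod2* in each library (red points sEH-/-, blue points wild-type, replicates 1 to 3 from left to right), with mean ± SD at the right of each group and each axis starting at 0. *Nfe2l2* and *Sod2* are the 2 genes drawn whose points do not overlap.

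*Sod2* (chr17:13006846-13040063), the manganese superoxide dismutase of mitochondria, was the gene of the module that rose in sEH-/- cells. Its raw counts were 1252, 1298 and 1110 in sEH-/- cells against 916, 1034 and 997 in wild-type cells, so that all sEH-/- counts exceeded all wild-type counts before any scaling. In CPM these were 214, 262 and 257 against 201, 168 and 179, with means of 244.5 ± 26.3 and 183 ± 17.1 (SD, n = 3 libraries). The lowest sEH-/- value exceeded the highest wild-type value by less than the SD of either group. The log2 fold change was 0.42 (SE 0.098, 95% interval 0.20 to 0.64, edgeR adjusted p = 0.046), a 1.34-fold difference that lies under the study's fold criterion. 

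The call for *Sod2* depended on the libraries and the model used. It passed in 10 of 15 alternatives, and its log2 fold change stayed between 0.36 and 0.51 in all of them, with edgeR, DESeq2 or limma adjusted p from 0.0031 to 0.21. Of the 5 losses, 4 were the fits without sEH-/- replicate 2 (0.39, edgeR adjusted p = 0.14) or replicate 3 (0.39, 0.070) and those without wild-type replicate 2 (0.36, 0.21) or replicate 3 (0.41, 0.18). The other loss was the fit with replicate number as a block, which kept all libraries. The neutrophil markers given above were also higher in all sEH-/- libraries, mainly through *Csf3r*. Of the macrophage markers, *Cd14* (log2 fold change 0.50, edgeR adjusted p = 0.029) and *Fcgr1* (0.45, 0.065) also had no overlap and stood higher in sEH-/- cells. The part of either cell type in the *Sod2* value was not tested. The other enzymes of this step overlapped between genotypes, with log2 fold changes of 0.085 for the cytosolic dismutase *Sod1* and -0.076 for catalase *Cat*.

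The wider antioxidant and detoxification network was described by 126 further genes listed by function, of which 121 were analysed and 109 tested. Of these, 3 were called (2.75%, against 2.61% of all tested genes), and 5 passed by adjusted p alone (4.59%, against 4.01%). Their median log2 fold change was 0.023, with 60 above and 49 below 0, and 21 (19.3%) had no overlap between the genotypes, against 26.3% of all tested genes.

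*Ephx1* (chr1:180976210-181020904), the microsomal epoxide hydrolase, fell in sEH-/- cells. Its CPM was 63.0, 58.5 and 103 against 113, 133 and 122, a log2 fold change with SE of -0.72 ± 0.18 (edgeR adjusted p = 0.048). The groups did not overlap, but sEH-/- replicate 3 lay near the wild-type libraries, and without it the log2 fold change was -1.003 (adjusted p = 0.0027). The call was lost in 6 of 15 alternatives, among them the fits without sEH-/- replicate 1 (-0.61, adjusted p = 0.075) or replicate 2 (-0.56, 0.16) and without wild-type replicate 2 (-0.66, 0.21) or replicate 3 (-0.73, 0.17). With all libraries kept, it was also lost under another scaling, RLE normalization, and with the library total as a covariate.

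*Gsto2* (chr19:47865534-47886324), an omega-class glutathione transferase with dehydroascorbate reductase activity, fell as well, with 5.82, 3.63 and 6.72 against 9.89, 11.7 and 12.7 CPM, at a log2 fold change with SE of -1.09 ± 0.25 (edgeR adjusted p = 0.046). Its neighbour *Gsto1*, a module gene on the same chromosome, stood at 0.083. *Msrb2* (chr2:19371440-19394976), a mitochondrial methionine sulfoxide reductase, rose, with 15.1, 17.6 and 8.81 against 6.16, 3.73 and 5.92 CPM, at a log2 fold change with SE of 1.41 ± 0.30 (adjusted p = 0.034). Both transcripts were scarce. Each call was lost in 5 of 15 alternatives, among them the covariate and the fits without sEH-/- replicate 2 (*Gsto2* -0.86, edgeR adjusted p = 0.14, *Msrb2* 1.23, 0.11), wild-type replicate 2 (-1.08, 0.20 and 1.201, 0.17) or wild-type replicate 3 (-1.01, 0.19 and 1.51, 0.14).

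Past the adjusted p but under the fold criterion were a further 2. Xanthine dehydrogenase *Xdh* (chr17:73883895-73950196), whose oxidase form makes superoxide and hydrogen peroxide, rose, with 389, 467 and 381 against 332, 263 and 267 CPM, at a log2 fold change with SE of 0.52 ± 0.11 (edgeR adjusted p = 0.037). The mitochondrial NAD kinase *Nadk2* (chr15:9071260-9110891), which makes NADP, fell, with 39.7, 38.3 and 39.0 against 52.1, 52.9 and 48.4 CPM, at a log2 fold change with SE of -0.39 ± 0.088 (adjusted p = 0.041). *Nadk2* had the tightest groups of the 5, and it was still lost in 8 of 15 alternatives, DESeq2 (adjusted p = 0.097) and the fits without any 1 library but sEH-/- replicate 1 among them (edgeR adjusted p = 0.053 to 0.21). *Xdh* was lost in 5, among them the fits without sEH-/- replicate 2 (0.44, edgeR adjusted p = 0.12), wild-type replicate 2 (0.46, 0.20) or wild-type replicate 3 (0.47, 0.17).

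**Figure D5:**
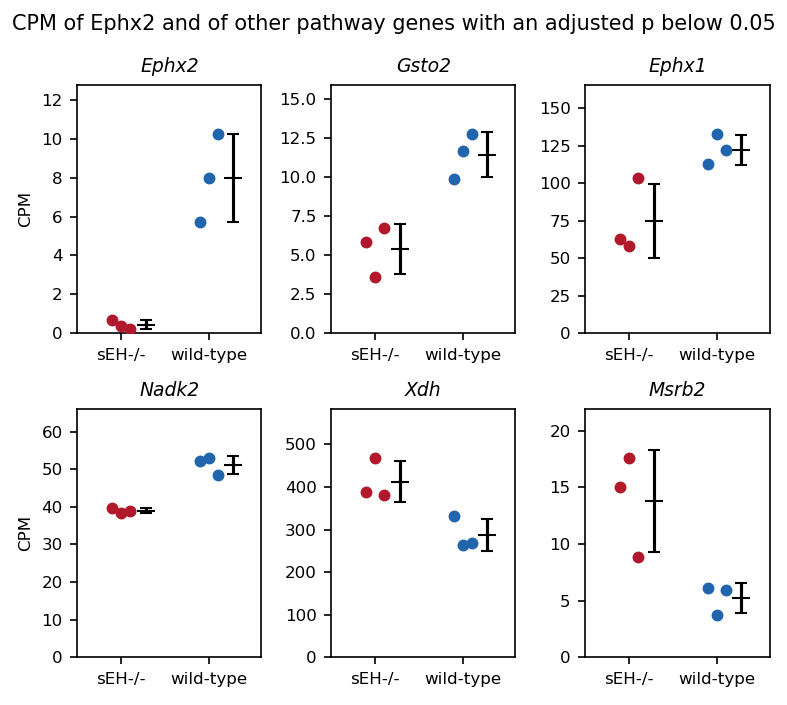
CPM of *Ephx2* and of the 5 other pathway genes with an adjusted p below 0.05 in each library (red points sEH-/-, blue points wild-type, replicates 1 to 3 from left to right), with mean ± SD at the right of each group and each axis starting at 0. The genotypes do not overlap in any of the 6 panels, and sEH-/- replicate 3 of *Ephx1* and of *Msrb2* lies nearest to the wild-type libraries.

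A further list held superoxide sources together with the dismutase *Sod3* and the uncoupling protein *Ucp2*. Of its 12 tested genes, 11 (91.7%) had a log2 fold change above 0 (10 to 12 under the other scalings and tools), with a median of 0.13. The 1 below 0 was *Sod3*, at -0.445 (SE 0.703), with 0 to 15 counts in each library. Above 0 were 49.8% of all tested genes and 66.9% of those above 0.2 counts per base. *Xdh* was the 1 of 12 that passed (8.33%, against 4.01% of all tested genes). With the library total as a covariate the median of the list was 0.071 and 0 of 12 passed. Among phagocyte NADPH oxidase subunits, the organizer *Ncf1* had 248, 312 and 292 against 250, 195 and 213 CPM, at a log2 fold change of 0.37 (SE 0.11, edgeR adjusted p = 0.077, DESeq2 adjusted p = 0.017). Log2 fold changes were 0.13 for the catalytic *Cybb*, 0.096 for *Ncf4* and 0.062 for *Cyba*. The median of this list was 0.28 counts per base, in the range where CPM was most often highest in the library with the smallest total, and the part of that in these values was not tested. The partners of NRF2, which include the small MAF proteins, the repressor *Bach1* and the ubiquitin ligase scaffold *Cul3*, gave 0 of 9 past the adjusted p (edgeR, DESeq2 and limma-voom), with 1 of 9 at an unadjusted p below 0.05, *Mafk*, at a log2 fold change with SE of 0.18 ± 0.069 (adjusted p = 0.15). Among glutathione genes outside the module 0 of 15 passed with edgeR or limma-voom, 1 with DESeq2, and 4 (26.7%) had an unadjusted p below 0.05 with edgeR, against 23.4% of all tested genes. The second enzyme of glutathione synthesis, *Gss*, had 54.4, 39.6 and 61.0 against 65.5, 83.4 and 69.9 CPM, with no overlap, and a log2 fold change with SE of -0.51 ± 0.15 (edgeR adjusted p = 0.074). It was the 1 gene that passed with DESeq2 (adjusted p = 0.041). The exporter *Abcc3* had 258, 272 and 219 against 214, 167 and 158 CPM, with no overlap, at a log2 fold change of 0.48 (edgeR adjusted p = 0.053, DESeq2 adjusted p = 0.0025).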

How the data were processed

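RNA from 3 sEH-/- and 3 wild-type M2c macrophage cultures was sequenced. The authors deposited raw counts per gene, not normalized. Per the submitters' processing notes, reads were trimmed with Trimmomatic 0.39, aligned with STAR 2.7.7a to mm10, freed of duplicates with Picard 2.21.7 and counted with featureCounts 1.6.5. By the methods, multi-mapping, ribosomal and mitochondrial reads were removed, and exonic reads on the correct strand counted. The labels name a stranded mRNA kit and the methods a stranded total RNA kit. Removing duplicates limits the counts that abundant transcripts can reach, and discarding multi-mapping reads lowers genes with near-identical copies.

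The counts were tested in R 4.3.3 with edgeR 4.0.16 (TMM, quasi-likelihood test, no covariates) for 13785 genes with a mean above 5 counts. Calls needed more than a 1.5-fold change, in either direction, at an adjusted p below 0.05. DESeq2 1.42.0, limma-voom 3.58.1, other scalings and filters, a replicate block, a covariate, ceiling-corrected counts and leaving out each library were alternatives. The code was tested on simulated data. Totals of 4400197 to 6096440 counts limit the precision of scarce genes. Libraries of 1 genotype differed by more than sampling noise (chi-square per degree of freedom 2.37 to 5.27). The labels number the replicates, and the study gives n as animals. Lengths came from GENCODE M21 for 19286 genes.

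The module, the further gene lists and the tests were chosen with earlier results of these data known. All module genes are named. Values per library are given for regulators, classical targets, ferritins and genes past the adjusted p, and of the other pathway genes for those called and the next 5 by adjusted p. Values per library of *Prdx5*, *Gsta4*, *Cp* and *Nnt*, and the mention of *Mafk*, *Cybb*, *Ncf4*, *Cyba*, *Sod3* and *Ucp2*, were chosen after their values were seen.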

Additional observations from a re-analysis of the deposited data

How the results depend on the processing

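The 6 libraries decided how many genes were called. Leaving out each library in turn gave 4 to 346 genes called higher (208 with all libraries), 2 to 312 called lower (152) and 6 to 990 past the adjusted p alone (553), lowest without wild-type replicate 3, with 4, 2 and 6, and next without wild-type replicate 2, with 20, 5 and 25, or sEH-/- replicate 2, with 73, 23 and 109. With the log2 library total as a covariate these were 121, 50 and 236, with no filter 240 were called lower and 866 passed the adjusted p, and with no fold threshold 329 were higher. In the module 0 genes were called in every alternative except that without the fold threshold, where *Sod2* made it 1. Past the adjusted p alone there were 0 to 2 on leaving out a library (2 without sEH-/- replicate 1, adding *Nfe2l2*), and 1 elsewhere but under the replicate block. Other pathway genes called were 3, 0 with the covariate, 5 with no fold threshold and 0 to 5 without 1 library. Of 510 comparisons of a module gene with an alternative, 504 stayed on their side of the adjusted p threshold, 5 lost it (*Sod2*) and 1 gained it (*Nfe2l2*). No called value reversed, and the causes of the changes were not tested.

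The deviations of same-numbered libraries correlated at -0.082, -0.26 and -0.037, so no pairing by replicate number was seen. With 3 libraries per genotype, such values cannot show that the libraries were unpaired. A replicate block left 85 genes called lower, 280 past the adjusted p, 1 other pathway gene called (*Ephx1*) and 0 module genes past the adjusted p, with *Sod2* at 0.42 (edgeR adjusted p = 0.096).

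On simulated counts 78 of 108 genes with a 2-fold and 86 of 92 with a 4-fold change were called, with 7 calls among 13585 unchanged genes. The simulated counts followed the library totals and had no ceiling, unlike those of many abundant genes here. These rates therefore do not carry over to such genes. *Nqo1* and *Me1* had the widest intervals of the module, and *Gsta4* was too scarce to test.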

Other observations

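*Nnt*, the mitochondrial transhydrogenase that makes NADPH from NADH, was all but absent from both genotypes, with 3, 0 and 3 counts in sEH-/- cells against 2, 1 and 2 in wild-type cells, and so was not tested. The methods name C57BL/6N for purchased mice, and the cause of the low counts was not tested. The transferases *Gsta1* and *Gstm6*, the aldehyde dehydrogenase *Aldh3a1* and the exporter *Abcc2* also had 0 or 1 count in each library.

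Haem and iron genes outside the module gave 0 of 15 past the adjusted p (edgeR, DESeq2 and limma-voom), with 3 at an unadjusted p below 0.05. Among them the ferroxidase ceruloplasmin, *Cp*, had 7.53, 20.8 and 11.8 CPM in sEH-/- against 6.38, 6.98 and 6.1 in wild-type libraries, a log2 fold change of 1.03 (SE 0.34, edgeR adjusted p = 0.10), and it was called in the fit without sEH-/- replicate 1. *Cp* was named after its values were seen.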
